A study of Mus musculus with 35 samples.

Results

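The p53 target genes described here are 10 genes that the tumor suppressor p53 switches on: *Cdkn1a*, *Mdm2*, *Ccng1*, *Trp53inp1*, *Phlda3*, *Bax*, *Bbc3*, *Sesn2*, *Zmat3* and *Fas*. They were found by symbol among the 26127 rows of a table of RNA levels, where each had 1 row. Levels are in RPKM, the reads of a gene divided by its exon length in kilobases and by the library size in mega-reads. Of the 10 genes, 9 passed the filter for testing (RPKM above 1 in at least 2 libraries), together with 11606 other rows, and *Fas* did not. The samples were mouse embryonic stem cells (ESCs) in serum and LIF, with total RNA sequenced after removal of ribosomal RNA. Control cells (genotype Wildtype in the labels, here WT) and *Dnmt1* KO cells were sampled on days 0, 1, 3, 6, 9, 11, 17 and 25, with 2 biological replicates in each group and 3 at day 1, and 1 library came from *Dicer* KO cells. *Dnmt1* encodes the enzyme that copies DNA methylation at replication. In the methods, the KO arises in ESCs with floxed *Dnmt1* alleles (loxP/loxP, strain C57BL/6) when tamoxifen induces Cre, and the *Dicer* KO was made in the same line with CRISPR, so it kept *Dnmt1*. The labels give the background strain of every sample as E14. Whether the WT cells carried the floxed alleles or received tamoxifen, and which cultures held feeder cells, is not given in the sources used here.

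p53 is a transcription factor that is made all the time and destroyed almost as fast, because MDM2 marks it for the proteasome. DNA damage, stalled replication and the protein ARF block MDM2, so that p53 accumulates and acts mainly without a rise of its own mRNA. Its targets then slow the cell cycle, trigger apoptosis, aid repair or, like *Mdm2*, switch p53 off again. In ESCs the pathway is known to respond to damage, although these cells lack a firm G1 checkpoint.

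Among the members, *Cdkn1a* encodes p21, the inhibitor of cyclin-dependent kinases that carries out the p53 cell cycle arrest (chr17:29227924-29237667, plus strand, build NCBIM37). *Mdm2* encodes the ubiquitin ligase that closes the feedback loop (chr10:117125944-117147814, minus strand). *Ccng1* encodes cyclin G1, which recruits a phosphatase to MDM2 (chr11:40562054-40568813, minus strand). *Trp53inp1* encodes a nuclear protein that promotes p53 activity (chr4:11083578-11101526, plus strand), and *Phlda3* a repressor of AKT signaling (chr1:137662696-137665713, plus strand). *Bax* and *Bbc3* (PUMA) act at the mitochondrion in apoptosis (chr7:52717065-52722268, minus strand, and chr7:16894965-16903554, plus strand), and *Fas* is a death receptor of the cell surface (chr19:34365149-34402260, plus strand). *Sesn2* encodes sestrin 2, which restrains mTORC1 (chr4:132047947-132066416, minus strand). *Zmat3* encodes a zinc finger protein that binds RNA (chr3:32233718-32264600, minus strand). No exon of a member overlapped an exon of another gene in the GENCODE vM1 annotation.

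p53 binds DNA as a tetramer at a pair of decamers, each with a core of C, A or T in the next 2 positions, and G. The genome was searched from 2500 bases before to 2500 bases after the annotated start of each gene for 2 decamers of the p53 consensus, at most 1 base apart, with both cores intact and at most 1 mismatch in all. The consensus is its own reverse complement, so a search of 1 strand covers both. The window and the mismatches were set after the sequences had been seen, and a match is not evidence of binding. A match was found at 210 of 11603 genes searched (1.81%) and at 4 of the 10 members. These 4 matches are shown because they are the closest to the consensus near the members' starts. They are from NCBIM37 on the strand of the gene, with the cores in capitals:
*Cdkn1a*: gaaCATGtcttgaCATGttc
*Zmat3*: aaaCAAGcccaggCATGtct
*Trp53inp1*: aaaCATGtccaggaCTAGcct
*Ccng1*: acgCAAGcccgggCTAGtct
The *Cdkn1a* match (chr17:29227873-29227892) began 51 bases before the annotated start and held 1 mismatch, and the *Trp53inp1* match (chr4:11082259-11082279) began 1319 bases before the start, with 1 base between its decamers and 0 mismatches. The matches of *Zmat3* (chr3:32263253-32263272, 0 mismatches) and *Ccng1* (chr11:40568438-40568457, 1 mismatch) lay in introns, 1328 and 356 bases after the start.

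RefSeq promoters of build GRCm38.p6, from 250 bases before to 50 after a start, were given for 8 of the 10 members (11 windows) and not for *Zmat3* and *Trp53inp1*. A perfect decamer stood in 4 of the 11 windows of the members (1 each of *Cdkn1a*, *Mdm2*, *Ccng1* and *Bax*) and in 2745 of all 32851 windows (8.36%). The *Cdkn1a* window with decamers (chr17:29090729-29091028, plus strand) and the *Mdm2* window (chr10:117710709-117711008, minus strand) are shown because the report turns on the effector and on the feedback inhibitor. The other *Cdkn1a* window (chr17:29093519-29093818, plus strand) held 0 perfect decamers. Perfect decamers are in capitals:
*Cdkn1a*: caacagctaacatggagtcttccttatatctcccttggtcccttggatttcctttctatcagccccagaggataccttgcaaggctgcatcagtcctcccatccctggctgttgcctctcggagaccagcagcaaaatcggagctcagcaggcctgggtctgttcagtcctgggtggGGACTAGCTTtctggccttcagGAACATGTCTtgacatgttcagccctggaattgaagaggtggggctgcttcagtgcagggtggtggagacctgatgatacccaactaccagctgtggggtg
*Mdm2*: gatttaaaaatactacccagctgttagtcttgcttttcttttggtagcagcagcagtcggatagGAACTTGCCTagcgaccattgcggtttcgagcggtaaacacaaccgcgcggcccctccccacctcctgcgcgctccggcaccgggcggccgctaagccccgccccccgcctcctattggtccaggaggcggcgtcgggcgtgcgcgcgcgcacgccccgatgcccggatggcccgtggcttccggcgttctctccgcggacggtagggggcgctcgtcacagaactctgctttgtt
The second decamer marked in *Cdkn1a* is the left part of the match at its start above.

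Library size ranged from 24.3 to 72.1 mega-reads. Exons took from 20.2% to 22.0% of the reads in 20 libraries (days 0, 3, 6 and 9 and the first pair of day 1 replicates, numbers 1 and 2) but from 44.1% to 48.8% in the other 15 (day 1 replicate 3, days 11, 17 and 25, and *Dicer* KO). RPKM is scaled by all reads of a library, and the set and the day cannot be told apart, so levels across these 2 sets of libraries were not compared. *Dnmt1* RNA followed the labels after day 0, with between 14.1 and 34.8 RPKM in WT and between 2.58 and 8.13 RPKM in KO, except at day 6. There the libraries labelled WT had 3.22 and 3.40 RPKM and those labelled KO had 20.2 and 20.4 RPKM, so day 6 is described on its own and the mean effect covers days 3, 9, 11, 17 and 25. All 11 ESC markers exceeded 1 RPKM in every WT and *Dnmt1* KO library. At days 3, 9 and 11, 0 of them were called higher in KO than in WT. Called lower were 2, 3 and 3 (3.81%, 10.5% and 12.3% of all genes). At day 17, 4 were called higher and 4 lower (28.9% and 11.4% of all genes), with log2 differences between −0.78 and 1.25. At day 25, 6 were called higher and 3 lower (39.4% and 25.9%), between −1.56 and 2.23. The part of this in the members' differences was not tested. The summed level of 16 fibroblast markers, which feeder cells would carry, lay between 2.50 and 4.48 RPKM on days 11, 17 and 25. It was higher in KO than in WT without overlap on days 3, 9 and 17 (values below) and also at day 0 (between 19.3 and 23.9 RPKM in WT and between 25.3 and 27.2 RPKM in KO), where 0 of the 10 markers tested were called. The summed level of 7 primitive endoderm markers, a lineage that ESC cultures can form, lay between 1.92 and 7.64 RPKM in WT and *Dnmt1* KO libraries. In bulk RNA, fewer cells that express a gene and less RNA per cell cannot be told apart.

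*Cdkn1a*, *Mdm2* and *Phlda3* were called higher in KO than in WT on days 3, 9, 11 and 17, and *Ccng1* and *Trp53inp1* on days 3, 9 and 17, whereas 0 members were called at day 6, where the labels run against *Dnmt1* RNA. At day 17, *Cdkn1a*, *Phlda3*, *Trp53inp1*, *Ccng1* and *Mdm2* were between 1.97-fold and 3.53-fold higher in KO than in WT, whereas *Sesn2* and *Zmat3* did not pass the test. At day 25 the picture turned: *Mdm2*, *Zmat3*, *Sesn2* and *Bbc3* were lower in KO than in WT, and of the tested members *Ccng1* alone was still called higher. The plot of levels by library and the matrix of differences show this course. Tests are from limma across all 11615 genes with Benjamini-Hochberg adjustment, on log2 values of RPKM + 0.1, a scale on which changes of low genes come out too small.

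**Figure D1:**
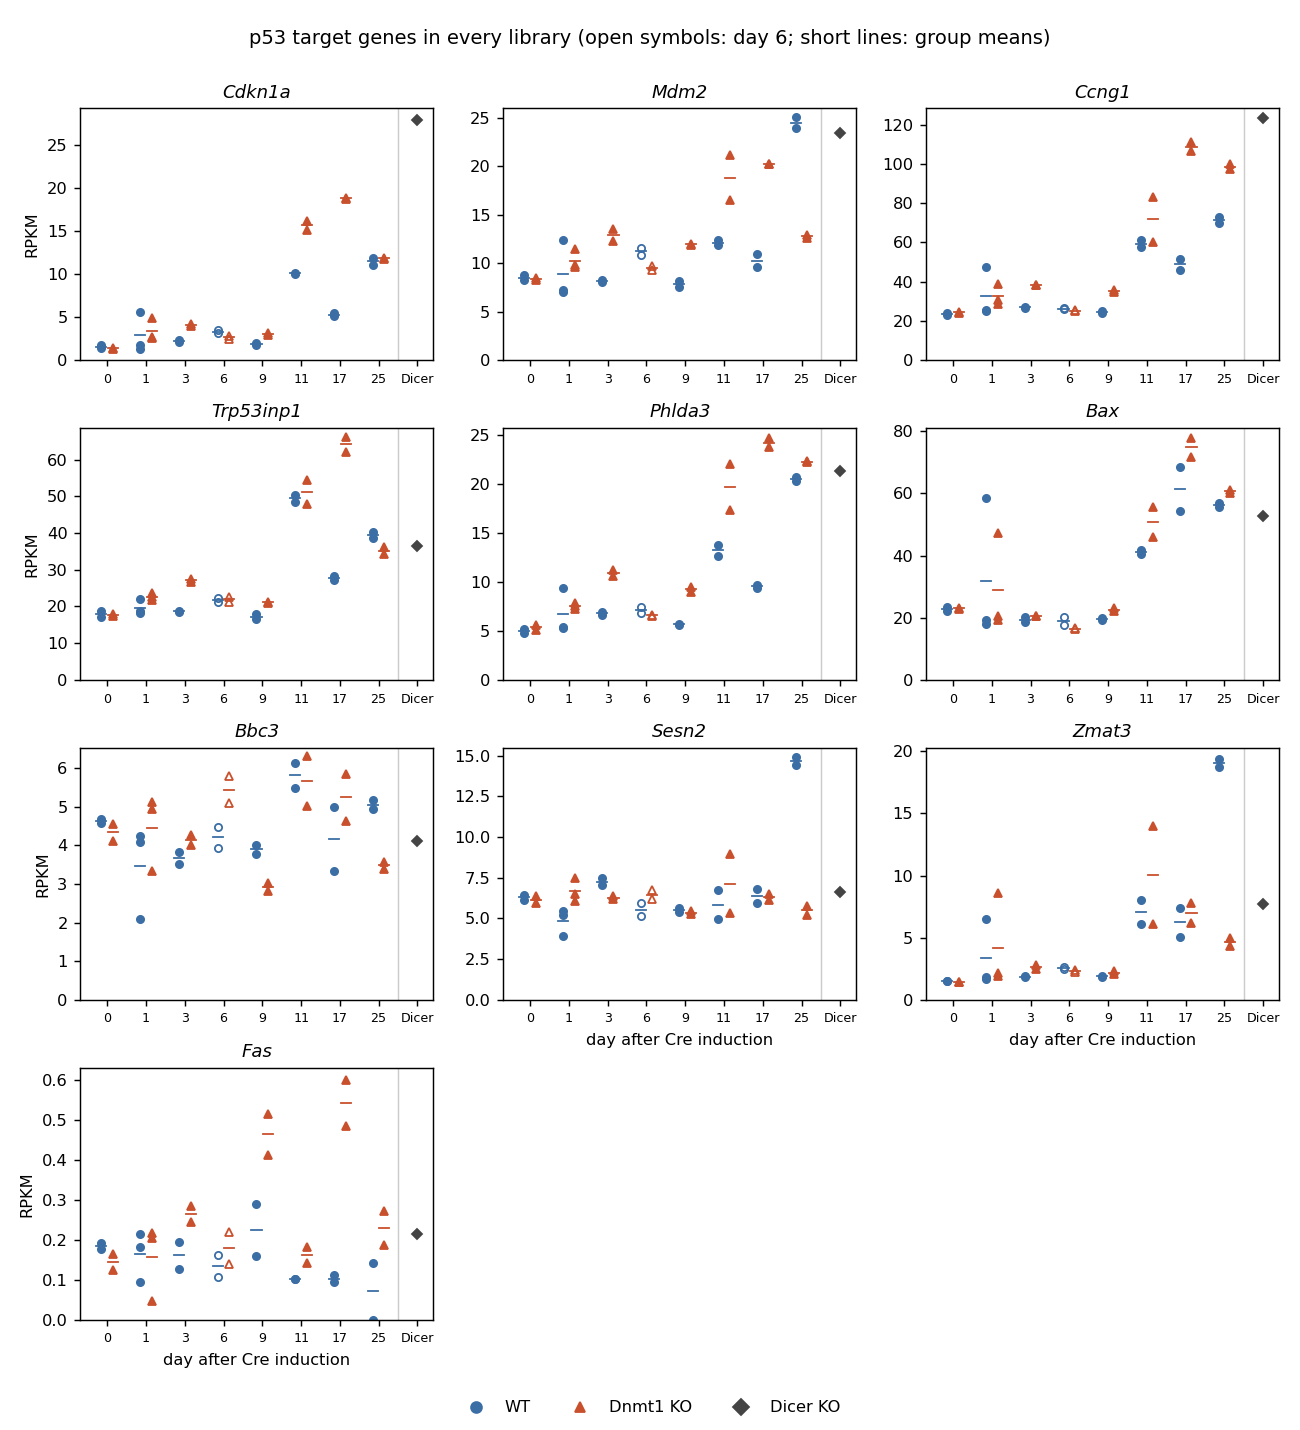
RPKM of the 10 p53 target genes (linear axes from 0) in every library by day after Cre induction, with circles for WT, triangles for *Dnmt1* KO, a diamond for the *Dicer* KO library, open symbols for day 6 and short lines for group means. At day 17 both KO libraries lie above both WT libraries for *Cdkn1a* (18.9 and 18.7 against 5.06 and 5.45 RPKM), and at day 25 both WT libraries stand far above KO for *Zmat3* and *Sesn2*.

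By day, 0 members were called at day 0, where 0% of all genes were called in either direction (242 of the 11615 had an unadjusted p below 0.05, and voom on recovered reads also called 0 genes). At day 1, 0 members were called either, with 0.121% of all genes called higher and 0.0258% lower. Without the replicate 3 pair of day 1, whose libraries belong to the other set, *Cdkn1a*, *Mdm2*, *Phlda3* and *Trp53inp1* were called higher (log2 differences 0.76, 0.43, 0.46 and 0.32, adjusted p between 0.00194 and 0.0303), against 0.215% of all genes (0.0689% lower, with 0 members). *Dnmt1* RNA in the replicate 3 pair was 19.5 RPKM in WT and 8.13 RPKM in KO. In replicates 1 and 2 of day 1 it was 17.9 and 18.1 RPKM in WT and 2.86 and 3.04 RPKM in KO. The *Dnmt1* loss was thus weaker in the replicate 3 pair, and its part in the day 1 calls was not tested. At day 3, 5 of 9 members tested were called higher (7.4% of all genes) and 0 lower (3.81%). At day 9, 5 were called higher (16.7% of all genes) and 1 lower (10.5%), and at day 11, 4 were called higher (22.7%) and 0 lower (12.3%). At day 17, 6 were called higher (28.9% of all genes) and 0 lower (11.4%), whereas at day 25 only 1 was called higher (39.4%) and 4 lower (25.9%). Over the mean of days 3, 9, 11, 17 and 25, 6 members were called higher (37.4% of all genes) and 1 lower (20.4%). The median log2 difference of the 9 members was 0.50, 0.29, 0.30, 0.98 and −0.16 at days 3, 9, 11, 17 and 25, beside medians over all genes of 0.02, 0.02, 0.07, 0.09 and 0.13.

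**Figure D2:**
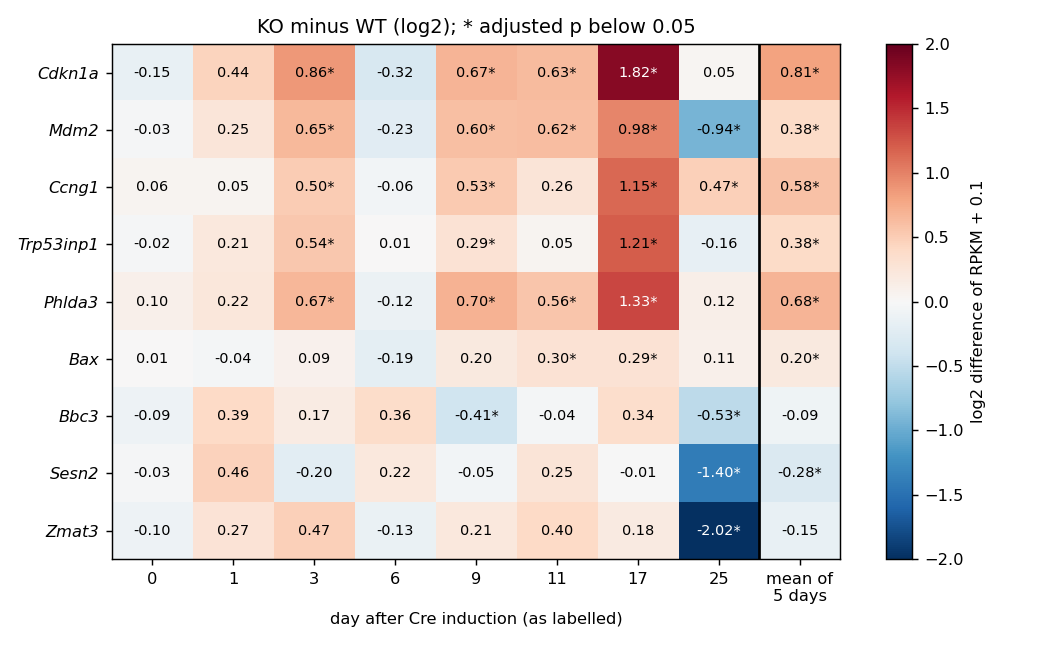
Log2 difference KO minus WT of the 9 tested members (rows) at each labelled day and over the mean of 5 days (columns), with red for higher in KO, blue for lower and an asterisk for an adjusted p below 0.05. Day 17 holds 6 called rises, led by *Cdkn1a* at 1.82, and day 25 holds 4 called falls, led by *Zmat3* at −2.02.

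The calls at days 3, 9 and 11 depended on whether the replicate 3 pair of day 1, where kept in the fit, had its own term. Without its own term in the fit, the estimates for these days stayed as they were but 0 members were called at each of the 3 days, against 5 at day 17. A fit of the day 11 libraries alone also called 0 members there. With both libraries of the replicate 3 pair left out, every member called at days 3, 9 and 11 stayed called. *Ccng1* was then also called higher at day 11 (0.26, adjusted p = 0.0331). On days 3 and 9 the fibroblast markers moved with the rise: their sum lay between 18.3 and 21.4 RPKM in WT and between 35.04 and 36.2 RPKM in KO at day 3, and between 24.7 and 28.9 RPKM in WT and 56.6 and 64.8 RPKM in KO at day 9, where 8 of the 10 markers tested were called higher (7 of 10 at day 3). Primitive endoderm markers moved too at day 9, where 4 of the 4 tested were called higher (median log2 difference 0.98), with sums between 3.01 and 3.14 RPKM in WT and between 6.54 and 6.72 RPKM in KO. At day 3, 0 of these 4 were called, and at day 11, 4 of 10 fibroblast markers were called higher and 1 lower, with 0 of 4 primitive endoderm markers. The part of these cells in the members' rise on these days was not tested. At day 17, where the members' rise was largest, the sum was between 2.50 and 2.97 RPKM in WT and between 3.50 and 4.02 RPKM in KO, and 3 of the 10 fibroblast markers tested were called higher and 0 lower (28.9% and 11.4% of all genes), with a median log2 difference of 0.32 and a highest of 1.38. Of the 4 primitive endoderm markers tested, 1 was called higher, with sums between 1.92 and 2.67 RPKM in WT and between 2.73 and 3.21 RPKM in KO. In these 4 libraries *Col1a1* had at most 0.0492 RPKM and *Col3a1* at most 0.0121 RPKM. *Lum*, *Postn* and *Prrx1* were at 0 in both WT libraries, whereas 0 of the 16 fibroblast markers were at 0 in both KO libraries. The part of these cells in the day 17 differences was not tested.

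Of the 9 tested members, *Cdkn1a* had the largest difference at day 17. At day 0 it had 1.33 and 1.71 RPKM in WT and 1.27 and 1.43 RPKM in KO, and the groups overlapped. At day 1 the WT libraries had 1.31, 1.70 and 5.58 RPKM and the KO libraries 2.52, 2.67 and 4.91 RPKM, the last of each being the library of the other set. Within replicates 1 and 2 the KO libraries were above WT, and in the replicate 3 pair KO was below WT. At day 3 WT had 2.07 and 2.30 RPKM and KO had 4.21 and 3.90 RPKM, a log2 difference of 0.86 ± 0.16 (SE, adjusted p = 0.000997). At day 9 WT had 1.75 and 1.96 RPKM and KO had 2.86 and 3.18 RPKM (0.67 ± 0.16, adjusted p = 0.00315). The KO libraries were above the WT libraries on each of these days without overlap. At day 11 WT had 10.03 and 10.08 RPKM and KO had 16.2 and 15.1 RPKM (0.63 ± 0.16, adjusted p = 0.00396). At day 17 WT had 5.06 and 5.45 RPKM and KO had 18.9 and 18.7 RPKM, 3.53-fold higher on the fitted scale (1.82 ± 0.16, adjusted p = 5.31e-09). At day 25 WT had 11.8 and 11.06 RPKM and KO had 11.8 and 11.9 RPKM, with a difference of 0.05 ± 0.16 (adjusted p = 0.812). Both genotypes met at day 25 near a single level, which in WT was above that of day 17 and in KO below it.

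*Mdm2*, the inhibitor of p53, rose and then crossed over. At day 3 it had 8.07 and 8.27 RPKM in WT and 13.5 and 12.3 RPKM in KO (log2 difference 0.65 ± 0.11, adjusted p = 0.000262). At day 9 it had 7.49 and 8.15 RPKM in WT and 11.9 and 12.0 RPKM in KO. Day 11 gave 12.4 and 11.9 RPKM in WT and 16.5 and 21.2 RPKM in KO. At day 17 it had 9.59 and 10.9 RPKM in WT and 20.2 RPKM in both KO libraries (0.98 ± 0.11, adjusted p = 1.48e-07). At day 25 the order was inverted, with 25.09 and 24.0 RPKM in WT and 12.6 and 12.96 RPKM in KO (−0.94 ± 0.11, adjusted p = 1.75e-07). The day 25 WT libraries held the highest *Mdm2* levels of the 7 WT libraries with more reads in exons.

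*Ccng1* was the only tested member called higher at day 25. WT and KO had 26.7 and 27.1 against 38.2 and 38.0 RPKM at day 3 (log2 difference 0.50 ± 0.11, adjusted p = 0.00416). They had 23.7 and 25.18 against 35.9 and 34.8 RPKM at day 9. The KO libraries were above WT without overlap on both days. At day 11 the KO libraries differed from each other (83.3 and 60.3 RPKM, with 61.1 and 57.5 RPKM in WT), and the difference of 0.26 ± 0.11 did not pass the test (adjusted p = 0.0741). At day 17 WT had 51.7 and 46.0 RPKM and KO had 106 and 111 RPKM (1.15 ± 0.11, adjusted p = 1.98e-08). At day 25 WT had 69.7 and 72.7 RPKM and KO had 97.2 and 100.1 RPKM (0.47 ± 0.11, adjusted p = 0.000819).

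*Phlda3*, the AKT repressor, rose on the same days as *Cdkn1a*. At day 3 it had 6.67 and 6.97 RPKM in WT and 11.21 and 10.6 RPKM in KO, and on day 9 its level was 5.68 and 5.65 RPKM in WT and 9.51 and 9.02 RPKM in KO. At day 17 it had 9.70 and 9.40 RPKM in WT and 23.8 and 24.7 RPKM in KO (log2 difference 1.33 ± 0.12, adjusted p = 6.98e-09). At day 25 both genotypes were high, with 20.3 and 20.7 RPKM in WT and 22.3 RPKM in both KO libraries (0.12 ± 0.12, adjusted p = 0.389).

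*Trp53inp1*, a cofactor of p53, rose most at day 17. It had 18.8 and 18.6 RPKM in WT and 27.6 and 26.7 RPKM in KO at day 3 (log2 difference 0.54 ± 0.08, adjusted p = 5.91e-05), and 16.5 and 18.0 against 21.1 RPKM in both KO libraries at day 9 (0.29 ± 0.08, adjusted p = 0.00747). At day 11 the groups overlapped, with 50.4 and 48.5 RPKM in WT and 54.6 and 47.9 RPKM in KO. At day 17 WT had 28.3 and 27.1 RPKM and KO had 62.2 and 66.1 RPKM (1.21 ± 0.08, adjusted p = 2.54e-11). At day 25 WT had 38.5 and 40.2 RPKM and KO had 34.2 and 36.2 RPKM (−0.16 ± 0.08, adjusted p = 0.0724). The call at day 9 was lost without replicate 1 of WT at day 9 (0.23, adjusted p = 0.0937).

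Of the members that act in apoptosis, *Bax* rose slightly and *Bbc3* was not called higher on any day. *Bax*, the pore former of the outer mitochondrial membrane, had 40.4 and 41.9 RPKM in WT and 55.7 and 45.9 RPKM in KO at day 11 (log2 difference 0.30 ± 0.10, adjusted p = 0.0317), and 68.4 and 54.3 against 71.8 and 77.9 RPKM at day 17 (0.29 ± 0.10, adjusted p = 0.0279). The groups did not overlap on either day, but the replicates were far apart. The day 11 call was lost without replicate 1 of KO (0.16, adjusted p = 0.284), without replicate 1 of WT (0.27, adjusted p = 0.151) and without replicate 2 of WT (0.32, adjusted p = 0.0696). The day 17 call was lost without replicate 2 of WT (0.13, adjusted p = 0.411) and without replicate 2 of KO (0.24, adjusted p = 0.181), and the difference was 0.46 without replicate 1 of WT. Centring each library on its median ended both *Bax* calls (0.18 and 0.11).

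*Bbc3*, which encodes the BH3-only protein PUMA, was called lower at day 9, with 3.79 and 4.01 RPKM in WT and 2.82 and 3.02 RPKM in KO (log2 difference −0.41 ± 0.14, adjusted p = 0.0386), and this call was lost without any one of the 4 day 9 libraries (between −0.45 and −0.36, adjusted p between 0.0831 and 0.194). At day 25 it had 5.17 and 4.94 RPKM in WT and 3.58 and 3.38 RPKM in KO (−0.53 ± 0.14, adjusted p = 0.0028). At day 17 the groups overlapped, with 4.99 and 3.34 RPKM in WT and 5.86 and 4.64 RPKM in KO (0.34 ± 0.14, adjusted p = 0.0593).

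*Fas* was at most 0.599 RPKM in every library and did not pass the filter. At day 17 it had 5 and 6 reads in WT (0.0937 and 0.112 RPKM) and 27 and 33 reads in KO (0.484 and 0.599 RPKM), and at day 9 37 and 7 reads in WT (0.29 and 0.16 RPKM) and 40 and 26 in KO (0.515 and 0.413 RPKM). At day 25 it had 0 and 7 reads in WT and 10 and 15 in KO. The KO libraries lay above WT without overlap on these 3 days. In a fit without the filter, with 21683 genes, *Fas* was called higher at day 17 (log2 difference 1.66 ± 0.29, adjusted p = 0.000148, where 22.4% of genes were called higher) and at day 25 (1.07 ± 0.29, adjusted p = 0.00466, beside 26.5%), and not at day 9 (0.82 ± 0.29, adjusted p = 0.0584, beside 10.6%). These are differences between levels of a few reads.

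*Sesn2* and *Zmat3* were not called on any day before day 25 with all libraries in the fit. At day 3 *Sesn2* had 7.45 and 7.05 RPKM in WT and 6.35 and 6.22 RPKM in KO (log2 difference −0.20 ± 0.17, adjusted p = 0.533). *Zmat3* had 1.90 and 1.81 against 2.46 and 2.76 RPKM (0.47 ± 0.22, adjusted p = 0.207). A fit of the day 3 libraries alone called *Sesn2* lower and *Zmat3* higher in KO (adjusted p = 0.0407 and 0.0145). *Sesn2*, the mTORC1 restraint, had 5.40 and 5.66 RPKM in WT and 5.43 and 5.25 RPKM in KO at day 9, and 5.97 and 6.82 against 6.52 and 6.14 RPKM at day 17, with overlapping groups. At day 25 it had 14.9 and 14.4 RPKM in WT and 5.79 and 5.18 RPKM in KO (log2 difference −1.40 ± 0.17, adjusted p = 4.61e-07). *Zmat3*, the RNA-binding member, had 1.81 and 1.95 RPKM in WT and 2.08 and 2.30 RPKM in KO at day 9 (0.21 ± 0.22, adjusted p = 0.536). At day 17 its groups overlapped, with 5.08 and 7.43 RPKM in WT and 7.81 and 6.201 RPKM in KO. At day 25 it had 19.3 and 18.7 RPKM in WT and 4.96 and 4.31 RPKM in KO, 4.05-fold lower in KO (−2.02 ± 0.22, adjusted p = 1.33e-07). For both genes the day 25 WT libraries exceeded the other 13 libraries with more reads in exons, the *Dicer* KO library included, whereas the KO libraries of day 25 had less *Zmat3* than any KO library of days 11 and 17 and *Sesn2* levels near the lowest of these. At day 11 replicate 2 of KO stood apart in both genes (8.96 RPKM for *Sesn2* and 14.0 for *Zmat3*, against 5.31 and 6.11 in replicate 1). Neither gene was called there with all libraries in the fit, with differences of 0.25 and 0.40. Without that library the differences were −0.12 and −0.20, and without replicate 1 of KO they were 0.62 and 0.99. A single KO library thus set the sign and size of both.

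At day 6 the members gave no call in either direction, where 8.61% of all genes were called higher and 18.5% lower in the libraries labelled KO. *Cdkn1a* had 3.08 and 3.49 RPKM in the libraries labelled WT, which had the low *Dnmt1* level, and 2.43 and 2.81 RPKM in those labelled KO (log2 difference −0.32 ± 0.16, adjusted p = 0.155). *Mdm2* had 10.9 and 11.6 RPKM in the libraries labelled WT and 9.29 and 9.75 RPKM in those labelled KO (−0.23 ± 0.11, adjusted p = 0.109). For both genes the libraries labelled WT were higher without overlap. *Bbc3* and *Sesn2* lay the other way, also without overlap. *Bbc3* had 3.93 and 4.48 RPKM in the libraries labelled WT and 5.09 and 5.80 RPKM in those labelled KO (0.36 ± 0.14, adjusted p = 0.0629). *Sesn2* had 5.14 and 5.95 RPKM in the libraries labelled WT and 6.19 and 6.72 RPKM in those labelled KO (0.22 ± 0.17, adjusted p = 0.376). *Cdkn1a* and *Mdm2* passed the test in the fit without the replicate 3 pair of day 1 (adjusted p = 0.0437 and 0.0422) and in that of the day 6 libraries alone (adjusted p = 0.0496 and 0.0235), and *Bbc3* was called higher in the libraries labelled KO in the latter (adjusted p = 0.0244). Of the markers tested, 8 of 10 for fibroblasts and 3 of 4 for primitive endoderm were called lower in the libraries labelled KO, and their part was not tested.

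Whether the effect of the KO changed with time was tested as the difference between its values on 2 days. From day 9 to day 25 the effect fell in 6 of 9 members (21.5% of all genes) and rose in 0 (26.7%), with *Zmat3* at −2.22 ± 0.32 (adjusted p = 1.19e-05), *Mdm2* at −1.54 ± 0.15 (adjusted p = 1.05e-07) and *Sesn2* at −1.35 ± 0.24 (adjusted p = 0.000136). *Phlda3* (−0.58), *Trp53inp1* (−0.45) and *Cdkn1a* (−0.63) were also called. The call of *Cdkn1a* (adjusted p = 0.0263) was lost without WT replicate 1 or KO replicate 2 of day 9 (−0.55 each), and without WT replicate 1 or either KO replicate of day 25 (−0.58, −0.62 and −0.63, adjusted p between 0.0554 and 0.0897 over these 5 fits). Days 9 and 25 belong to different sets of libraries, so the comparison of days 25 and 17, both of the set with more reads in exons, was added after the values had been seen. Between these days the effect fell in 8 of 9 members, all but *Bax* (29.2% of all genes fell), by 1.91 ± 0.15 for *Mdm2* (adjusted p = 5.64e-09) and by 1.77 ± 0.23 for *Cdkn1a* (adjusted p = 2.46e-06) on the log2 scale. Without the term for replicate 3 of day 1, 2 members were called for days 25 and 9, and 5 for days 25 and 17.

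Levels moved between these days in both genotypes. In WT, 7 of 9 members were higher at day 25 than at day 17 (33.5% of all genes) and 0 lower (29.9%): *Zmat3* by 1.62 ± 0.22, *Mdm2* by 1.25 ± 0.11, *Sesn2* by 1.19 ± 0.17, *Cdkn1a* by 1.11 ± 0.16, *Phlda3* by 1.09 ± 0.12, *Ccng1* by 0.54 ± 0.11 and *Trp53inp1* by 0.50 ± 0.08 on the log2 scale, with adjusted p between 5.73e-09 and 0.000207. In KO, 6 of 9 were lower at day 25 than at day 17 (17.8% of all genes) and 0 higher (17.7%). *Trp53inp1* fell by 0.86 ± 0.08, *Cdkn1a* by 0.66 ± 0.16 and *Mdm2* by 0.66 ± 0.11 (adjusted p = 1.49e-08, 0.0024 and 4.39e-05), and *Bbc3*, *Zmat3* and *Bax* were also called lower. Of these, the call of *Bbc3* (−0.57) was lost without KO replicate 1 of day 17 (−0.41). That of *Zmat3* (−0.58) was lost without KO replicate 1 of day 17 (−0.41) and without either KO replicate of day 25 (−0.68 and −0.48), and that of *Bax* (−0.30) without KO replicate 2 of day 17 (−0.24) and without either KO replicate of day 25 (−0.31 and −0.29). Cell type markers also moved between these days. In WT, 5 of 10 fibroblast markers tested were called higher at day 25 and 1 lower (median 0.40), with sums between 2.50 and 4.02 RPKM over both days and genotypes. Primitive endoderm markers were called higher in 4 of 4 in WT (median 1.07) and 4 of 4 in KO (median 0.67), and ESC markers were called higher in 4 and lower in 6 of 11 in WT, and higher in 5 and lower in 1 in KO. Between genotypes at day 25, 3 of 4 primitive endoderm markers were called lower in KO and 0 higher, and of 10 fibroblast markers 3 were called lower and 2 higher. The part of these markers' cells in the members' changes was not tested. *Dnmt1* itself was 1.97-fold higher in WT at day 25 than at day 17 (adjusted p = 0.000167).

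**Figure D3:**
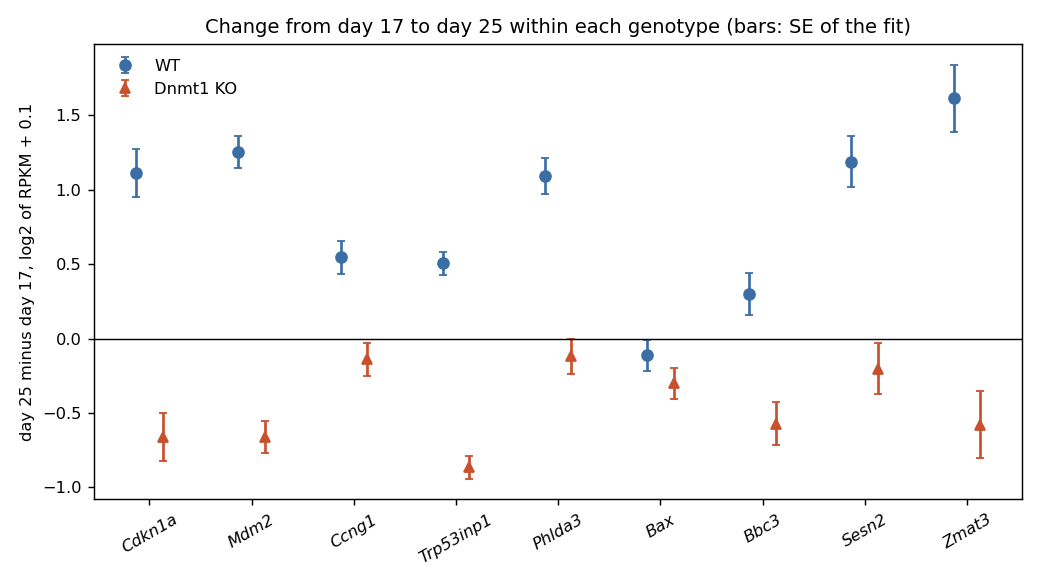
Log2 change from day 17 to day 25 of the 9 tested members within WT (circles) and within *Dnmt1* KO (triangles), with bars for the SE of the fit. In WT 8 of 9 members lie above 0, with *Zmat3* highest at 1.62, and in KO all 9 lie below 0, with *Trp53inp1* lowest at −0.86.

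The list of p53 and its regulators had 13 of 14 symbols in the table, of which 11 were tested. In the 5-day mean 6 were called higher and 2 lower (37.4% and 20.4% of all genes), with a median log2 difference of 0.14 beside 0.06 over all genes. *Trp53*, the p53 gene itself, had 2.01 and 2.12 RPKM in WT and 1.63 and 1.83 RPKM in KO at day 9, and 11.23 and 13.3 against 14.5 and 15.4 RPKM at day 17. Its difference between KO and WT was 0.02 ± 0.08 in the 5-day mean (adjusted p = 0.858) and was not called on any single day. From day 17 to day 25 *Trp53* was called higher in WT (0.45 ± 0.18, adjusted p = 0.0333) but not called in KO (−0.11 ± 0.18, adjusted p = 0.675). In WT, 5 of the 11 regulators tested were called higher between these days and 6 lower (33.5% and 29.9% of all genes). *Mdm4*, the partner of MDM2 that masks p53, differed by 0.17 ± 0.06 in the 5-day mean (adjusted p = 0.0182).

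The largest difference among the regulators was in *Cdkn2a*, the locus that encodes ARF, the inhibitor of MDM2, and the kinase inhibitor p16. Its reads were not split between the transcripts. At day 9 it had 1.02 and 0.738 RPKM in WT and 2.50 and 2.59 RPKM in KO. At day 11 it had 0.973 and 1.11 RPKM in WT and 7.45 and 4.32 RPKM in KO (log2 difference 2.34 ± 0.24, adjusted p = 1.36e-07). At day 17 it had 0.606 and 1.18 RPKM in WT and 4.39 and 4.17 RPKM in KO (2.21 ± 0.24, adjusted p = 1.7e-07). The KO libraries exceeded WT without overlap on each of these days. At day 25, when *Cdkn1a* no longer differed, *Cdkn2a* still had 1.48 and 1.89 RPKM in WT and 5.03 and 3.85 RPKM in KO (1.34 ± 0.24, adjusted p = 5.65e-05). At day 6 it had 1.89 and 1.51 RPKM in the libraries labelled WT and 0.607 and 0.581 RPKM in those labelled KO. The other named rises in the mean were *Ppm1d*, the WIP1 phosphatase that p53 induces and that dephosphorylates p53 (0.35 ± 0.04), and *Atr*, the replication stress kinase (0.33 ± 0.04). The difference of *Atr* was 1.62 ± 0.10 at day 25 and 0.21 ± 0.10 at day 17 (adjusted p = 0.0899). At days 3, 9 and 11 it was −0.09, 0.02 and −0.10, and not called. From day 17 to day 25 *Atr* fell by 0.99 ± 0.10 in WT (adjusted p = 2.94e-08) and rose by 0.43 ± 0.10 in KO (adjusted p = 0.00117). *Chek2*, a damage kinase (−0.15 ± 0.04), and *Usp7*, a deubiquitinase of MDM2 and p53 (−0.08 ± 0.03), fell in the mean.

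**Figure D4:**
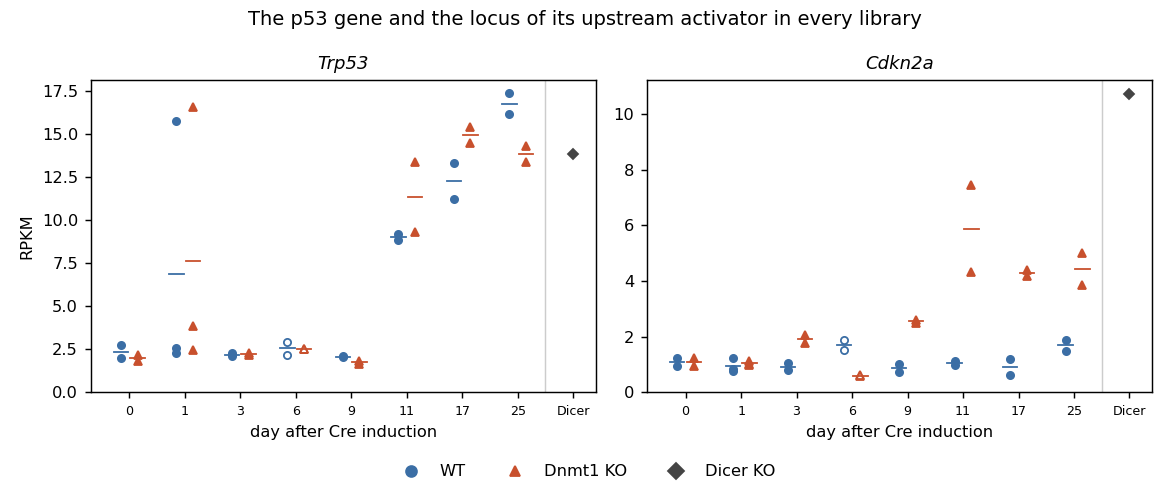
RPKM of *Trp53* and *Cdkn2a* (linear axes from 0) in every library by day after Cre induction, with circles for WT, triangles for *Dnmt1* KO, a diamond for *Dicer* KO and open symbols for day 6. *Trp53* shows no called difference on any day, whereas *Cdkn2a* in KO lies between 3.85 and 7.45 RPKM on days 11, 17 and 25, above all WT libraries of these days.

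A list of 27 other genes that p53 is known to activate had 25 symbols in the table and 24 tested. At day 17, 17 were called higher and 2 lower (28.9% and 11.4% of all genes), with a median log2 difference of 0.57 beside 0.09 over all genes. At day 25, 5 were called higher and 8 lower (39.4% and 25.9% of all genes), with a median of −0.11 beside 0.13. In the 5-day mean 15 were called higher and 3 lower (37.4% and 20.4%). *Perp*, a desmosome and apoptosis gene, had between 12.7 and 15.6 RPKM in WT and between 46.8 and 48.1 RPKM in KO at day 17 (1.75 ± 0.12, adjusted p = 6.21e-11) and between 24.2 and 24.99 against between 21.04 and 21.7 RPKM at day 25 (−0.20 ± 0.12, adjusted p = 0.136). *Ephx1*, an epoxide hydrolase, had between 0.753 and 1.15 RPKM in WT and between 2.39 and 2.79 RPKM in KO at day 17 (1.38 ± 0.15) and stayed higher at day 25 (1.53 ± 0.15, adjusted p = 1.97e-08). *Ptprv*, a receptor-like phosphatase, rose by 0.80 ± 0.28 in the mean (adjusted p = 0.0199). The falls in the mean were *Gadd45a*, a growth arrest and repair gene (−0.37 ± 0.04), *Ddb2*, which recognizes UV lesions (−0.29 ± 0.05), and *9630033F20Rik*, the symbol in this table for *Tigar*, a regulator of glycolysis (−0.13 ± 0.04).

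Of 15 cell cycle genes that p21 lowers through the DREAM complex, 3 were called lower and 0 higher at day 3 (3.81% and 7.4% of all genes), and 8 lower and 0 higher at day 9 (10.5% and 16.7%, median −0.24). At day 11, 4 were called lower and 2 higher (12.3% and 22.7%, median −0.15). At day 17, 2 were called lower and 2 higher (11.4% and 28.9%, median 0.04), and at day 25, 4 lower and 9 higher (25.9% and 39.4%, median 0.38). In the 5-day mean 5 were called lower and 1 higher (20.4% and 37.4%). *Foxm1*, the transcription factor of the G2 program, was lower in KO by 0.37 ± 0.11 in the mean on the log2 scale. At day 25 it was lower by 1.75 ± 0.25. Its group means in WT and KO were 1.54 and 1.58 RPKM at day 3, and 1.74 and 1.18 RPKM at day 9. They were 1.55 and 1.96 RPKM at day 11, 1.15 and 1.31 RPKM at day 17, and 4.39 and 1.23 RPKM at day 25. From day 17 to day 25 the level rose in WT and stayed near the same in KO. *Bub1*, a spindle checkpoint kinase (−0.26 ± 0.03), and *Plk1*, a mitotic kinase (−0.23 ± 0.06), were also lower in KO in the mean. *Cdc25c*, a phosphatase that starts mitosis, was higher by 0.14 ± 0.04. At day 17, the day of the largest *Cdkn1a* difference, *Bub1* was called lower (−0.25 ± 0.07, adjusted p = 0.00447), and *Foxm1* (0.17 ± 0.25, adjusted p = 0.641) and *Plk1* (−0.04 ± 0.14, adjusted p = 0.841) did not pass the test. The other gene called lower that day was *Top2a*, a topoisomerase of dividing cells (−0.36 ± 0.08, adjusted p = 0.00151), named after its values had been seen.

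The *Dicer* KO library was a single sample with no test. It was set beside the 7 WT libraries of its own set, those of days 11, 17 and 25 and day 1 replicate 3, and genes more than 1 log2 unit away from their mean were counted, as were 14.6% of all genes above and 9.3% below. Of the 10 members, 2 were more than 1 unit higher and 0 more than 1 unit lower. *Cdkn1a* had 27.9 RPKM in *Dicer* KO and a lowest, median and highest value of 5.06, 10.03 and 11.8 RPKM in these WT libraries (log2 difference 1.80), and *Ccng1* had 123 RPKM against 46.0, 57.5 and 72.7 RPKM (1.11). *Phlda3* had 21.3 RPKM against 9.38, 12.6 and 20.7 RPKM (0.71). Of the tested members, *Cdkn1a*, *Ccng1* and *Phlda3* exceeded all 7, as did 30.9% of all genes tested. *Mdm2* had 23.4 RPKM and lay below both WT libraries of day 25. *Trp53inp1*, *Bax*, *Bbc3*, *Sesn2* and *Zmat3* lay within the WT range, with differences between −0.21 and 0.06. *Fas*, which was not tested, had 10 reads (0.215 RPKM) and also exceeded all 7 (at most 0.143 RPKM). *Cdkn2a* had 10.7 RPKM, above the other 14 libraries of its set. The fibroblast marker sum of this library was 327 RPKM, and its part in these differences was not tested. *Dicer1* RNA was 4.01 RPKM against 3.90 to 8.57 RPKM in the WT libraries. The deleted part of the gene is not known from the sources used here, so this does not check the label.

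The pattern of *Cdkn1a* across libraries was compared with that of all other genes tested, as Pearson's r of KO minus WT over 17 pairs of libraries with equal day and replicate number. Apart from the replicate 3 pair of day 1, whose libraries share a set, replicate numbers did not pair the libraries. Which of those libraries of a day were set against each other is therefore arbitrary, and day 6 entered as labelled. The pairs share days and sets of libraries, so r is a description. The 5 genes most like *Cdkn1a* were *Klhdc5* (r = 0.956), *Ddit4l* (0.949), *Phlda3* (0.947), *Tmem127* (0.946) and *Cpped1* (0.928). Among 11614 genes, *Trp53inp1* ranked 18 (0.899), *Ccng1* 82 (0.846) and *Mdm2* 253 (0.792), whereas *Bax* (0.616), *Zmat3* (0.356), *Bbc3* (0.139) and *Sesn2* (0.055) were further down the order.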

How the data were processed

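Total RNA libraries were trimmed by the authors with Trim Galore (0.3.5), aligned with TopHat2 (2.0.11) to NCBIM37, filtered on mapping quality and quantified in SeqMonk. The deposited values are RPKM on a linear scale for 35 libraries, although the methods name log2 RPM, for which the tests had been planned. Exon lengths came from GENCODE vM1, which matched 99.9% of 26127 rows. With them, between 99.51% and 99.74% of values below 20 reads were whole reads (within 0.1), which gave depths of 5.1 to 17.5 mega-reads in exons. RPKM scales a library by all its reads, so levels also depend on the share of reads in exons. Reads carry no molecular identifiers, so their numbers give counting error only.

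Genes above 1 RPKM in at least 2 of 34 WT and *Dnmt1* KO libraries (11615) were tested with limma 3.58.1 in R 4.3.3 (group means, a trend, a pseudocount of 0.1 and a term for replicate 3 of day 1, as its libraries differ from replicates 1 and 2 in the share of reads in exons). Within a group, replicates 1 and 2 had r from 0.969 to 0.995, and in each of 16 pairs they differed beyond counting error (reduced chi-square from 1.36 to 44.3). The fit was also run on simulated reads with the same dispersion for every gene and library. That run cannot show how the fit handles the uneven spread of these replicates. Calls had an adjusted p below 0.05. The members, lists and tests were chosen with earlier results of these data known. Named were *Dnmt1*, *Dicer1*, all members, *Trp53*, *Mdm4*, in each of 3 lists the 3 largest called rises and falls of the 5-day mean, and the 5 genes most like *Cdkn1a*. *Cdkn2a* is named by that rule, and the values of *Col1a1*, *Col3a1*, *Lum*, *Postn* and *Prrx1* were chosen after they were seen. Alternatives were a pseudocount of 1, no filter, centring, no term or no libraries of replicate 3 of day 1, the groups compared alone, a replicate block, voom, day 6 included and each library left out. Python 3.11.15, numpy 2.4.6, pandas 2.3.3 and matplotlib 3.10.9 were used.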

Additional observations from a re-analysis of the deposited data

Results flagged for a closer look

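The KO effect (KO minus WT) differed between days in the following members, by a test of the difference itself with limma on the log2(RPKM + 0.1) scale. From day 9 to day 25 it changed by −0.63 for *Cdkn1a*, −1.54 for *Mdm2*, −0.45 for *Trp53inp1*, −1.35 for *Sesn2*, −2.22 for *Zmat3* and −0.58 for *Phlda3*. The 2 days belong to sets of libraries with different shares of reads in exons, and the *Cdkn1a* call was lost in some fits with a library left out. The comparison of days 25 and 17, within 1 set, was added after the values had been seen. From day 17 to day 25 the KO effect changed by −1.77 for *Cdkn1a*, −1.91 for *Mdm2*, −0.68 for *Ccng1*, −1.37 for *Trp53inp1*, −0.87 for *Bbc3*, −1.39 for *Sesn2*, −2.19 for *Zmat3* and −1.21 for *Phlda3*.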

How the results depend on the processing

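With 2 libraries per group, 1 library can decide a call, few reads limit *Fas*, and day 6 and the share of reads in exons limit comparisons across days. No pseudocount, filter, scaling or fit reversed a called member, and voom on recovered reads and the mean with day 6 added changed no member's call. The numbers of replicates 1 and 2 did not pair the libraries (r of their deviations between −0.159 and 0.260 over 8 days, above 0.1 at 1 day). With the replicate block, 2 genes were called at day 1 (17 without it) and 1 member was called higher at day 6 (0 without it, *Bbc3*), *Bbc3* was also called higher at day 17, and *Bax* was lost at days 11 and 17.

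Without a term for replicate 3 of day 1, the genes called fell from 17 to 1 at day 1, 1301 to 77 at day 3, 3143 to 330 at day 6, 3160 to 382 at day 9, 4066 to 653 at day 11, 4671 to 1204 at day 17, 7591 to 2430 at day 25, 6719 to 2196 in the 5-day mean, 5600 to 842 for days 25 and 9, 6320 to 1322 for days 25 and 17, and 7355 to 2235 for WT and 4120 to 641 for KO between these days. All WT and *Dnmt1* KO libraries share a single estimate of the spread. Without the term it takes in the difference of replicate 3 from replicates 1 and 2 of day 1. The part of this in the fall was not tested. Members called higher went from 5 to 0 at day 3, 5 to 0 at day 9, 4 to 0 at day 11 and 1 to 0 at day 25, and those lower from 1 to 0 at day 9, 6 to 2 for days 25 and 9, 8 to 5 for days 25 and 17 and 6 to 1 in KO. With both replicate 3 libraries left out, 33 genes and 4 members were called at day 1, 2 members were lower at day 6 and *Bax* was at 0.094 at day 1. With the groups compared alone, 0 genes were called at day 1, 2153 at day 3, 311 at day 11 and 2872 at day 17, with 1 member lower at day 3, 0 higher at day 11, and 1 higher and 2 lower at day 6. With a pseudocount of 1, 11 genes were called at day 1, and without the filter 9. Under both, 0 members were lower at day 9. Without the filter, 2 members were higher at day 25, since *Fas* entered.

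Centring moved the share of calls that were higher from 82.4% to 69.2% at day 1, 66.0% to 49.96% at day 3, 31.8% to 50.3% at day 6, 61.4% to 49.7% at day 9, 64.8% to 41.9% at day 11, 71.8% to 40.6% at day 17, 64.7% to 45.3% in the mean, 46.3% to 62.4% for days 25 and 17 and 52.8% to 38.4% in WT. It called 3 members lower in the mean (1 without it), 1 higher at day 6 and 1 lower in WT between days 17 and 25. Uncalled values near 0 changed sign (*Trp53inp1* −0.066 at day 11, *Zmat3* −0.0066 at day 17, *Ccng1* 0.012 at day 6). For the *Dicer* KO library, 7 members were over 1 unit higher against WT of day 0, which is of the other set, and 1 after centring.

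With each library left out, genes called ranged from 2 to 33 at day 1, 566 to 666 at day 3, 1856 to 2061 at day 6, 1721 to 2288 at day 9 and 2602 to 5325 at day 11. Members called higher ranged from 0 to 4 at day 1, and those lower were 0 at day 9, 1 to 2 in the mean and 0 to 1 in WT between days 17 and 25. Among values not called with all libraries in the fit, day 0 ranged from −0.083 to 0.051 for *Trp53inp1*, −0.075 to 0.014 for *Sesn2*, −0.030 to 0.057 for *Bax*, −0.072 to 0.0096 for *Mdm2* and −0.32 to 0.017 for *Cdkn1a*. Day 1 ranged from −0.11 to 0.094 for *Bax* and −0.024 to 0.23 for *Ccng1*, and day 6 from −0.032 to 0.056 for *Trp53inp1*. Day 11 ranged from −0.20 to 0.99 for *Zmat3*, −0.047 to 0.14 for *Trp53inp1*, −0.12 to 0.62 for *Sesn2* and −0.21 to 0.12 for *Bbc3*. Day 17 ranged from −0.093 to 0.45 for *Zmat3* and −0.11 to 0.083 for *Sesn2*, *Cdkn1a* at day 25 from −0.0029 to 0.10, and *Bax* in WT between days 17 and 25 from −0.28 to 0.055.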
